A study of Mus musculus with 13 samples.

Results

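The genes that encode the proteins of the cytosolic ribosome were followed through the pancreas of young, old and old-OSKM mice. Members were the protein-coding genes whose symbol is Rpl or Rps with a number, together with Rplp0, Rplp1, Rplp2 and Rpsa, without pseudogene symbols and without the S6 kinases. By this rule 89 of the 23366 genes in the table were members. Of these, 77 were core ribosomal protein genes, 46 of the large subunit (3 of them in its acidic stalk) and 31 of the small subunit. Another 11 were paralogs, which resemble a core gene, and Rps19bp1 matched by name only, since it encodes a protein that binds a ribosomal protein.

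RNA was sequenced from the pancreas of 13 female i4F-B mice, 1 library per mouse. All 3 groups carried the same cassette of Oct4, Sox2, Klf4 and Myc (OSKM), inserted in the Pparg gene and inducible by doxycycline. The paper describes the transgene as ubiquitous but its expression as uneven among cell types. In the pancreas it saw SOX2 broadly in acinar cells and not in most endocrine cells. The 4 young mice (13 weeks) and the 5 old mice (55 weeks) were left untreated. The 4 old-OSKM mice received doxycycline in the drinking water for 7 days at 55 weeks and recovered for 2 weeks, which the labels give as an age of 58 weeks. The old mice did not receive doxycycline, so the drug and the cassette cannot be told apart in these groups.

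Ribosomal protein genes are among the most uniformly expressed genes of the cell, because each protein is needed in a fixed ratio in every ribosome. Their mRNAs begin with a run of pyrimidines, the TOP (terminal oligopyrimidine) motif, through which the mTOR pathway controls their translation, and MYC is a known activator of their transcription. The acinar cell of the pancreas, which secretes digestive enzymes, is one of the most active protein-making cells of the body. The values below are mRNA levels only and say nothing of translation.

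The starts of 8 members are shown because of the pyrimidine run for which the mRNAs of these genes are known. RefSeq promoters (GRCm38.p6, the same assembly as mm10) were found for 69 of the 89 members. The letters CTTTC were sought within 25 bases of the start on the coding strand, which reads as the mRNA does. They stood there in 21 of these 69 members (30.4%) and in 7.24% of all 17736 genes of the table with a promoter. On the opposite strand the shares were 10.1% and 6.25%. For CTTCC the shares were 29% of the members and 13% of all genes on the coding strand, and 23.2% and 15% on the opposite strand. The 2 motifs can overlap. The windows below run from 15 bases before the annotated start to 15 bases into the transcript, on the coding strand, with CTTTC and CTTCC in capitals. These members were chosen because their windows hold CTTTC, which most of the 69 did not, so they do not stand for all members. Of the large subunit, Rpl28 (chr7:4792950-4792979, plus strand), Rpl18 (chr7:45718056-45718085, plus), Rpl27a (chr7:109519180-109519209, plus) and Rpl7a (chr2:26910792-26910821, plus) are shown, with Rplp2 of the stalk (chr7:141447636-141447665, plus). Rps10 (chr17:27635230-27635259, minus) and Rps27 (chr3:90213634-90213663, minus) are of the small subunit, and Rps27rt (chr9:114982725-114982754, minus) is a paralog of Rps27.
Rpl28: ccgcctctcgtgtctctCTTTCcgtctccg
Rpl18: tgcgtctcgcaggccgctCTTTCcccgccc
Rpl27a: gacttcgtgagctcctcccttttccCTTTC
Rpl7a: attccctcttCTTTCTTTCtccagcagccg
Rplp2: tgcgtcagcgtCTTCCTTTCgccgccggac
Rps10: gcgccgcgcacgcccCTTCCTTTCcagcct
Rps27: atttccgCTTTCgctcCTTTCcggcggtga
Rps27rt: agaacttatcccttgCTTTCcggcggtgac
The windows of Rps27 and Rps27rt share a run of 14 bases. Over the whole promoter window of 250 bases before and 50 bases after the start, on both strands, the TATA box letters TATAAA were found in 11.6% of the members and in 14.3% of all genes. CCGGAAGT, the core that ETS factors bind, was found in 17.4% of the members against 5.77%, AAGATGG, letters bound by YY1, in 14.5% against 7.32%, and GGGCGG, the GC box, in 59.4% against 50%. These matches describe the letters of the windows and are not binding sites.

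The samples were pancreas by their markers. All 24 acinar markers were measured, and their summed RPKM (reads scaled to transcript length and library total) ran from 17800 to 19700 over the 13 mice. Both old-OSKM mouse 1 and old-OSKM mouse 4 stood apart in markers of other cells. Old-OSKM mouse 4 had the highest summed RPKM of fibroblast and stellate markers (90.2, against 27.5 to 67.8 in the other 12 mice), of endothelial markers (46.3 against 19.9 to 36.0), of islet markers (524 against 85.9 to 410) and of blood markers (105 against 35.4 to 68.8), and the lowest of acinar markers. Old-OSKM mouse 1 had the highest sums for B and plasma cells (84.7), T cells (12.1) and macrophages (60.0) and the lowest for islets (85.9). Adipocyte markers summed to 21.5 or more in these 2 mice and to between 9.52 and 17.0 in the others. The part of these cells in the results below was not tested, and in whole tissue fewer cells of a type and less RNA per cell cannot be told apart. The table holds no counts, so the number of reads behind a value is unknown and no counting error can be set on it.

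The core ribosomal protein genes formed a narrow band of high levels. Their mean log2 RPKM had a median of 5.14, with the middle 50% between 4.79 and 5.38, where the median of all genes was -1.02. Levels of 61 of the 77 genes lay between 4.5 and 6. The 200 genes of highest mean level in the table included 68 of the 77. Large-subunit genes had a median of 5.09 and small-subunit genes of 5.20. In each mouse the core genes took between 4.07% and 4.43% of the summed RPKM, with group means of 4.27% ± 0.0806 in young (SD, n = 4), 4.36% ± 0.0744 in old (n = 5) and 4.26% ± 0.139 in old-OSKM mice (n = 4). These 3 means differed by about as much as mice of one group did.

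**Figure D1:**
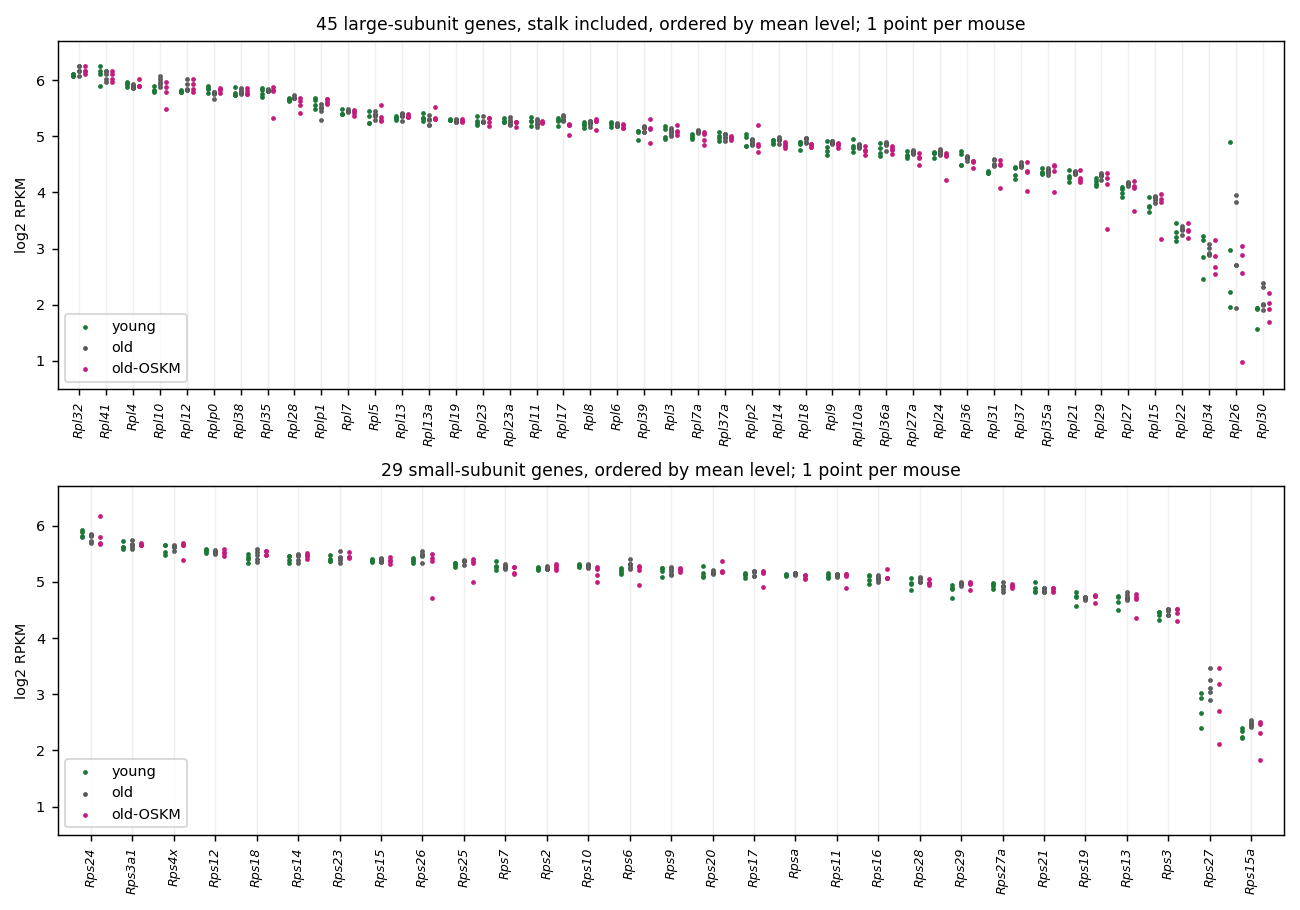
Level of 74 of the 77 core ribosomal protein genes in every mouse, in log2 RPKM on the vertical axis, for the large subunit with its stalk (top) and the small subunit (bottom), 3 core genes not being plotted, with genes ordered by mean level and young, old and old-OSKM mice as separate colours. Most genes sit between 4.5 and 6 with the 3 groups on top of each other, the lowest genes spread more, and single old-OSKM points (mouse 4) lie below the rest for genes such as Rps26, Rpl35 and Rpl29.

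The 5 highest members were Rpl32 (6.15 on average), Rpl41 (6.09), Rpl4 (5.91), Rpl10 (5.87) and Rpl12 (5.86), all of the large subunit. Rpl41 encodes the smallest ribosomal protein. In Rpl32 the young mice lay at 6.08 to 6.11, the old mice at 6.08 to 6.26 and the old-OSKM mice at 6.11 to 6.26, so the groups overlapped. Rpl32 and Rpl41, Rpl4 and Rpl10, and Rpl10 and Rpl12 differed by less than the larger SD between mice of either gene, and Rpl41 and Rpl4 by more. Rps6, the ribosomal protein that S6 kinase phosphorylates, had a level of 5.14, 5.22, 5.25 and 5.18 in young mice, 5.32, 5.27, 5.31, 5.23 and 5.40 in old mice and 5.21, 5.27, 5.28 and 4.95 in old-OSKM mice. The old mice overlapped both other groups, and the lowest value was that of old-OSKM mouse 4. The difference of Rps6 was 0.11 between old and young mice (limma, adjusted p = 1.0). Against old mice the old-OSKM mice differed by -0.13 (limma, adjusted p = 0.589), and by -0.05 without old-OSKM mouse 4 (adjusted p = 0.859).

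Only 7 of the 77 core genes had a mean below 4: Rpl15, Rpl22, Rps27, Rpl34, Rpl26, Rps15a and Rpl30, the last at 1.99. They were named after their values were seen, apart from Rpl22, Rps27 and Rpl30. Reads that map to 5 or more places had been removed by the authors, and the members have many processed copies in the genome. Of 87 members with a GENCODE M21 transcript, 83 shared at least 1 window of 50 bases with another annotated gene, and 42 had most of their windows in other genes. In the median member 50.7% of the windows were found in no other gene. Across the 77 core genes the level had a Spearman correlation of -0.018 with the share of windows found in 4 or more other genes. The windows were compared as exact matches among annotated transcripts, so copies outside the annotation were not counted. The part of removed reads in the levels was not tested. Levels of some single members are uncertain. For Rps27, 1.35% of windows were unique, and for Rps27rt 8.92%, so their levels of 2.94 and 4.65 may divide the same reads in either way.

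Levels of paralogs ranged from near that of the core gene to the bottom of the scale. Rpl36al (4.69) and Rpl36a (4.79), Rpl22l1 (3.49) and Rpl22 (3.31), and Rpl37rt (3.53) and Rpl37 (4.40) were within 1 log2 unit of each other. Rps27l lay at 4.14. Rps23rg1 (2.75), Rpl7l1 (1.81) and Rpl32l (1.57) lay far below Rps23 (5.43), Rpl7 (5.43) and Rpl32 (6.15). Rpl3l, known from striated muscle, and Rpl10l and Rpl39l, known from the testis, had means of -2.82, -3.13 and -2.87, the only 3 members below 0. In Rpl3l, 11 mice lay between -3.04 and -2.88, whereas old mouse 4 and old-OSKM mouse 3 lay at -2.21 and -2.12. Rps19bp1, which binds Rps19, had a mean of 0.44.

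Between mice of one group the core genes varied little. The SD within groups had a median of 0.066 log2 units in the 70 core genes with a mean from 4 to 6.5, against 0.14 in the 126 other genes of that level. It was under 0.1 in 55 of the 77 genes and over 0.2 in 7, whereas 48.5% of all genes had an SD over 0.2. The values were quantile normalized, and 70 of the 199 genes with a mean from 4 to 6.5 are core genes. A shift common to the core genes in 1 mouse is therefore damped in these SDs, and the part of this in the small spread was not tested. The steadiest were Rpl19 (SD 0.0228), Rpsa (0.024), Rpl6 (0.0299) and Rps2 (0.0305), named here by their spread. The most variable was Rpl26, which lay at 1.95, 2.23, 4.89 and 2.97 in young mice, 2.70, 1.94, 2.70, 3.95 and 3.83 in old mice and 2.56, 2.88, 3.04 and 0.98 in old-OSKM mice. Its highest and its lowest value belonged to a young and an old-OSKM mouse, and all 3 groups overlapped. Rps27 came next with an SD of 0.388.

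A single library stood apart among the ribosomal protein genes. Old-OSKM mouse 4 was the lowest of all 13 mice in 36 of the 77 core genes and the highest in 9. Its values deviated from the mean of the other 12 mice with an SD of 0.326 over the genes, against 0.0627 to 0.281 in the other mice, where 1 gene, Rpl26, raised the largest of these values. Rpl26 also deviated most in old-OSKM mouse 4 (-1.99) and so raised its SD too. Among genes with a mean from 4 to 6.5, which leaves out Rpl26, the SD of this mouse was 0.221 for core genes, against 0.042 to 0.0808 in the others, and 0.633 for all other genes, against 0.14 to 0.332. Genes of other kinds thus deviated in this mouse as well. The median deviation over the core genes was -0.086, and the deviation lay below -0.2 in 25 genes.

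Genes of both subunits were among those low in this mouse. Rps26 lay at 4.71 there and at 5.33 to 5.55 in the other 12 mice, Rpl35 at 5.33 against 5.70 to 5.88, and Rpl29 at 3.35 against 4.11 to 4.35. Rps24 (6.17 against 5.67 to 5.93), Rplp2 (5.19 against 4.72 to 5.03) and Rpl5 (5.56 against 5.23 to 5.46) were higher there than in every other mouse. These genes were chosen for their deviation. Over the 77 genes the deviation of this mouse had Spearman correlations of 0.16 with transcript length, 0.061 with GC content and -0.11 with the share of windows found in 4 or more other genes, all from 1 library. The paralogs Rps27l (3.37 against 4.10 to 4.32) and Rpl32l (0.461 against 1.41 to 1.89) were low as well.

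**Figure D2:**
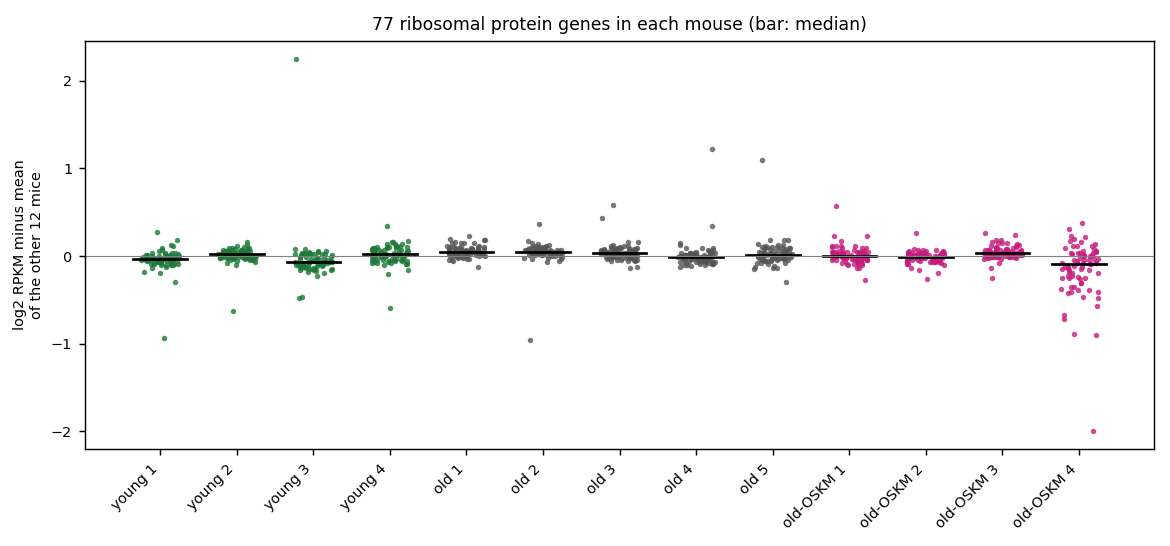
Each point is 1 of the 77 core genes in 1 mouse, as its log2 RPKM minus the mean of the other 12 mice on the vertical axis, with a bar at the median of each mouse. In 12 mice nearly all points lie close to 0 apart from single genes such as Rpl26, while the points of old-OSKM mouse 4 spread with an SD of 0.326 and a median of -0.086. Rpl26 is the lowest point of old-OSKM mouse 4 as well.

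The comparison of old with young mice addresses how the pancreas changes with age. No member passed a fold change over 1.5 with a raw p under 0.01, a call that 0.886% of all genes met. None had a Benjamini-Hochberg adjusted p under 0.05 in limma either (0.0813% of all genes did). In the limma fit of all 13 mice the lowest adjusted p of a member in any comparison was 0.547. At an unadjusted p under 0.05 there were 3 members, all higher in old mice, where 5.52% of all genes passed (3% higher in old mice). The difference was above 0 for 68 of 89 members and for 54.4% of all genes. Members had a median difference of 0.033 and all genes of 0.001, and the median of the core genes was 0.032.

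The 95% interval of the difference lay within a fold of 1.5 in either direction for 75 of the 77 core genes, with Rps27 and Rpl26 as the exceptions. A change of that size was thus outside the interval for nearly all of them. The difference itself was under 0.15 log2 units in 73 of 77.

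The member of smallest p was Rpl7l1, a paralog of Rpl7. It lay at 1.84, 1.72, 1.68 and 1.78 in young mice and at 1.87, 1.80, 1.86, 1.88 and 2.11 in old mice. The groups overlapped, and old mouse 5 was the highest. The difference was 0.15 ± 0.06 (SE, limma, adjusted p = 0.826). Rps29, a protein of the small-subunit head, lay at 4.89, 4.94, 4.71 and 4.87 in young and at 4.99, 4.97, 4.99, 4.97 and 4.93 in old mice, with young mouse 3 the lowest and 1 young mouse inside the old range. Its difference was 0.12 ± 0.05 (limma, adjusted p = 0.846). Rpl9 read 4.67, 4.81, 4.74 and 4.91 in young and 4.88, 4.91, 4.88, 4.91 and 4.86 in old mice, with a difference of 0.11 ± 0.05 (limma, adjusted p = 0.882). The young mice spread over a wider range than the old mice and included a value as high as theirs.

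All 3 stalk genes had the opposite sign, where the difference was above 0 for 58 of the 77 core genes. This sign was not particular to the stalk. Rps24 (-0.07) and Rpl4 (-0.04), for example, were further below 0 than Rplp2. The stalk is the part of the large subunit that recruits translation factors. Rplp0, its base, lay at 5.90, 5.86, 5.84 and 5.77 in young mice and 5.78, 5.78, 5.75, 5.77 and 5.66 in old mice. Only the lowest young mouse fell inside the old range. The difference was -0.09 ± 0.04 (limma, adjusted p = 0.904), with an unadjusted p just above 0.05. Rplp1 differed by -0.12 ± 0.06 (limma, adjusted p = 0.984) and Rplp2 by -0.02, and neither passed.

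Old and young values did not overlap in 5 members, all higher in old mice (2.71% of all genes did not overlap, 1.5% with old mice higher). These were Rpl7a, Rpl31, Rpl37, Rpl27 and Rps15a, of which Rpl31, Rpl27 and Rps15a are named by this result. Rpl31 lay between 4.34 and 4.39 in young mice and between 4.47 and 4.59 in old mice, a difference of 0.16 (limma, adjusted p = 1.0). In the fit of all 13 mice none of the 5 had a raw p under 0.05. The estimate of spread in that fit included old-OSKM mouse 4, which is in neither group. Without that mouse, 15 members had a raw p under 0.05, 14 higher in old mice and Rplp0 lower, against 7.7% of all genes. All 5 of the genes above were among the 15, and Rpl31 had the lowest adjusted p of the 15 (limma, adjusted p = 0.207). Also among them were Rps6 (limma, adjusted p = 0.529), Rpl10 (adjusted p = 0.467) and Rps29. With both mice that stood apart left out, a choice made after seeing their values, there were 16, 15 higher, against 8.3% of all genes. Rpl7a, at a difference of 0.09 that leaving out these mice does not move, then had an adjusted p = 0.364 in limma, and Rpl31 an adjusted p = 0.188. The run of sample identifiers differed between mice as well: young mice 3 and 4 and old mouse 5 were numbered 641 to 643 and the others 609 to 621. Within the identifiers from 609 to 621, the median difference of the members was 0.034 and 2 members passed, Rpl9 higher and Rplp1 lower (4.65% of all genes passed).

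**Figure D3:**
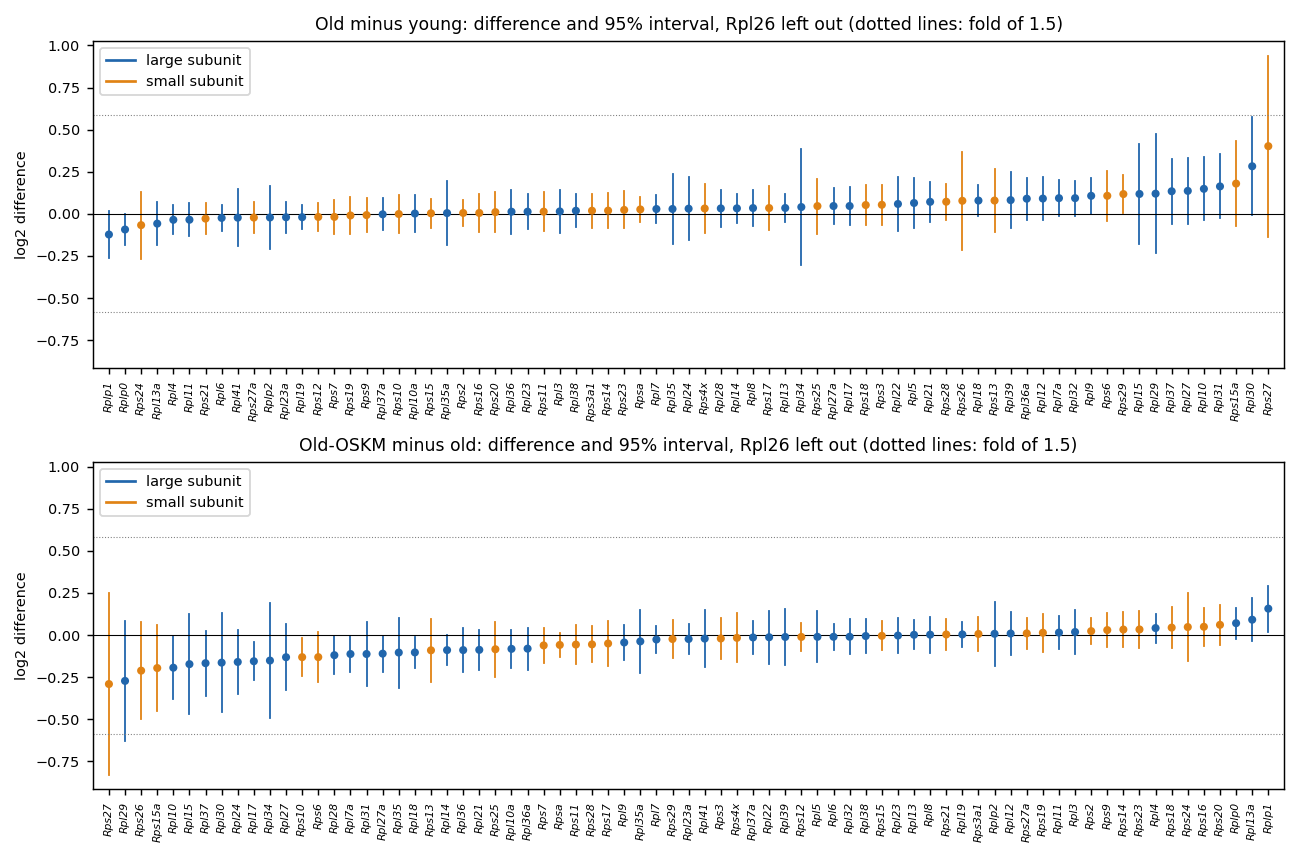
Log2 difference (points) and 95% interval (lines) of 73 core genes, the stalk included, with Rpl26 and 3 others not plotted, between old and young mice (top) and between old-OSKM and old mice (bottom), ordered by size, with large- and small-subunit genes in separate colours and dotted lines at a fold of 1.5. Intervals of nearly all genes stay inside the dotted lines, with Rps27 crossing in both panels and Rpl29 in the lower one.

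Old-OSKM and old mice were compared to find what doxycycline and the cassette together leave behind after recovery. By the labels the old-OSKM mice were 58 and the old mice 55 weeks old, so age differed as well. The comparison of old-OSKM with old mice and the one above share the 5 old mice, so a high value in those mice enters both with opposite sign. No member met the fold change and p of a call (0.753% of all genes did), and none had an adjusted p under 0.05 (0.00428%). At an unadjusted p under 0.05 there were 11 members, 10 lower and 1 higher in old-OSKM mice, where 8.07% of all genes passed (4.08% lower and 3.98% higher). The lowest adjusted p among them, shared by all 11, was 0.547. The difference was above 0 for 25 of 89 members and for 36.9% of all genes. Medians were -0.055 for the members, -0.023 for the core genes and -0.039 for all genes. Of the 46 large-subunit genes 9 passed, 8 lower and 1 higher, and of the 31 small-subunit genes 1 passed, which was lower. The remaining member that passed was the paralog Rpl7l1, also lower. For 74 of the 77 core genes the 95% interval lay within a fold of 1.5, with Rps27, Rpl29 and Rpl26 outside.

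Rpl17, which lines the exit of the nascent protein from the large subunit, had the smallest p. It lay at 5.34, 5.28, 5.29, 5.26 and 5.38 in old mice and at 5.19, 5.19, 5.22 and 5.02 in old-OSKM mice. All 4 old-OSKM mice were below all 5 old mice, and mouse 4 was the lowest. The difference was -0.16 ± 0.05 (SE, limma, adjusted p = 0.547). It was -0.11 without old-OSKM mouse 4 (limma, adjusted p = 0.695) and -0.11 without mice 1 and 4 (adjusted p = 0.98), and Rpl17 kept an unadjusted p under 0.05 in both. Of the windows of Rpl17, 55.3% were found in no other gene, and 51 other genes shared the rest.

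Rpl18, a large-subunit protein as well, ranged from 4.88 to 4.97 in old mice and from 4.81 to 4.86 in old-OSKM mice, again without overlap (difference -0.10, limma, adjusted p = 0.547). With old-OSKM mice 1 and 4 left out, its difference was -0.08 and its unadjusted p was no longer under 0.05. The paralog Rpl7l1 lay at 1.72, 1.76, 1.72 and 1.79 in old-OSKM mice, below all old mice and near the young mice (difference from old -0.16, limma, adjusted p = 0.547). In Rpsa, named by this result, the largest old-OSKM value was below the smallest old one. In all, 5 members did not overlap, every one lower in old-OSKM mice (1.73% of all genes did not overlap, 0.706% with old-OSKM mice lower).

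Rps10, a protein of the mRNA entry side of the small subunit, read 5.30, 5.25, 5.32, 5.30 and 5.26 in old mice and 5.12, 5.26, 5.23 and 5.01 in old-OSKM mice. Mice 1 and 4 were the low ones, and mouse 2 lay inside the old range. Its difference was -0.13 (limma, adjusted p = 0.547), and -0.04 without mice 1 and 4 (adjusted p = 0.98). Against young mice Rps10 differed by -0.13 as well (limma, adjusted p = 0.706). Further members lower in old-OSKM than in old mice included Rpl28 (-0.12), Rpl27a (-0.11), Rpl7a (-0.11) and Rpl10 (-0.19). Without old-OSKM mouse 4 the difference was -0.07 in each of Rpl28, Rpl27a and Rpl7a, and none of these kept an unadjusted p under 0.05. Rpl10, needed for the joining of the subunits, showed the pull of this library as well: it lay at 5.88 to 6.08 in old mice, at 5.78, 5.88 and 5.97 in old-OSKM mice 1 to 3 and at 5.49 in mouse 4. Its difference was -0.10 without that mouse (limma, adjusted p = 0.801).

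Rplp1 was the 1 member that was higher at an unadjusted p under 0.05. It lay at 5.50, 5.58, 5.52, 5.46 and 5.28 in old mice and at 5.66, 5.60, 5.58 and 5.66 in old-OSKM mice, where the lowest mouse was level with the highest old mouse. The difference was 0.16 ± 0.06 (limma, adjusted p = 0.547), and 0.15 without old-OSKM mouse 4, where its unadjusted p was no longer under 0.05 (adjusted p = 0.795). Old mouse 5 was the lowest of all 13 mice in both Rplp0 and Rplp1. Rplp0 differed by 0.07 (limma, adjusted p = 0.608) and Rplp2 by 0.01, and in Rplp2 old-OSKM mouse 4 (5.19) lay above the range of the other 12 mice. Without that mouse the difference of Rplp2 turned to -0.09 and did not pass.

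**Figure D4:**
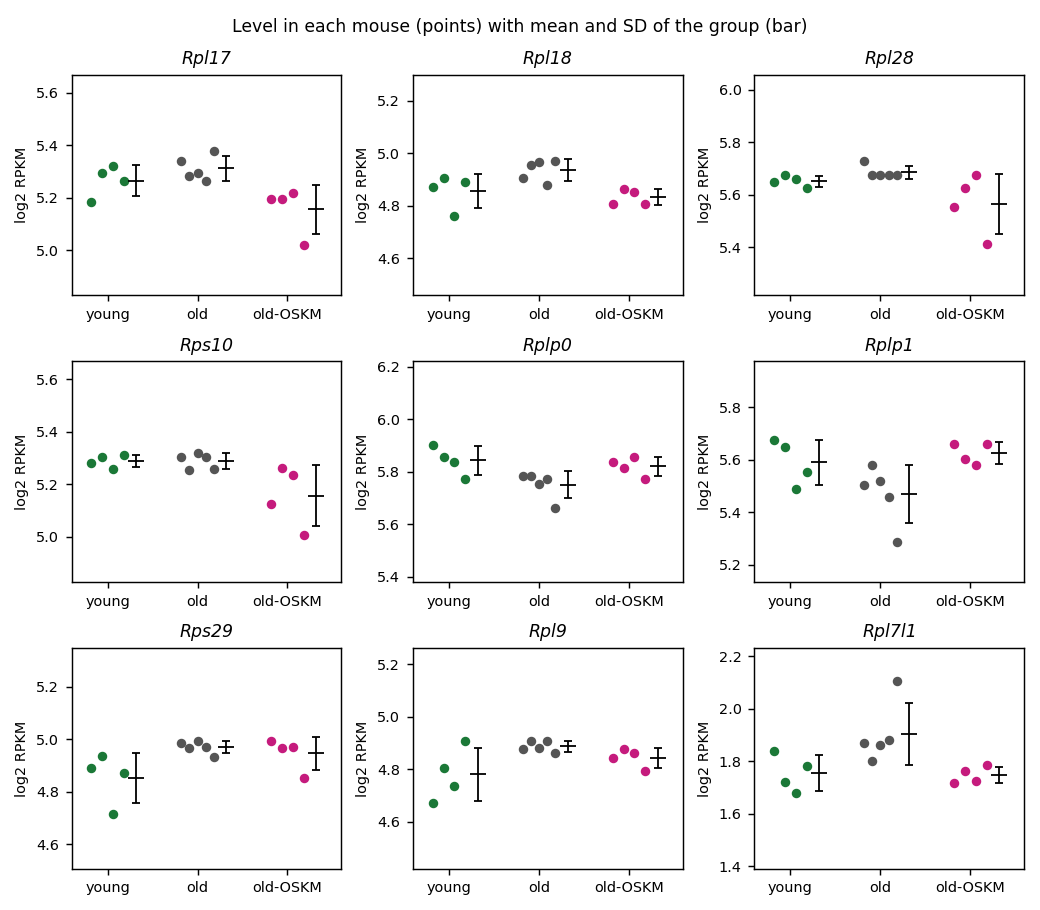
Log2 RPKM of 9 members in every mouse (points), with the mean and SD of each group beside them (bar) and the same span on each vertical axis. Old-OSKM mice lie below all old mice in Rpl17, Rpl18 and Rpl7l1, while Rps10 is low in 2 of the 4 old-OSKM mice and Rplp0 and Rplp1 are lowest in 1 old mouse.

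The count of members in this comparison rested on single libraries. It was 4 without old-OSKM mouse 4 (Rpl17, Rpl7l1 and Rpl18 among them, against 6.23% of all genes), 1 without mouse 1 (4.44% of all genes), and 1, Rpl17, without both (4.14% of all genes). Without mouse 3 it was 19, where the share of all genes that passed rose as well, to 16.5%. The median difference of the members was -0.017 without mouse 4 and -0.011 without mice 1 and 4, where all genes had medians of -0.018 and 0.013. Within the identifiers from 609 to 621, 2 members passed, Rpl17 lower and Rplp1 higher (5.56% of all genes), and the median of the members was -0.056.

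Old-OSKM mice differed from young mice in 1 member at an unadjusted p under 0.05, Rps10, which was lower (5.07% of all genes passed, 2.16% lower). No member met the fold change and p of a call (0.625% of all genes) or an adjusted p under 0.05 (0.0428%), and the median difference was -0.016 against -0.038 for all genes. Groups did not overlap in 1 member, which was higher in old-OSKM mice (1.9% of all genes, 1.09% higher). Without old-OSKM mouse 4, 8 members passed, 7 of them higher in old-OSKM mice and Rps24 lower (5.81% of all genes), and the median difference of the members turned to 0.022 (-0.018 for all genes). Within the identifiers from 609 to 621 none passed (4.69% of all genes).

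Genes that work with the ribosome were counted in the same fit, where passing again means an unadjusted p under 0.05, as 5.52% of all genes did between old and young mice and 8.07% between old-OSKM and old mice. Fau and Rack1 encode ribosomal proteins under other names, and neither had a raw p under 0.05 in the comparisons of old with young and old-OSKM with old mice. Rack1 lay at 4.88 in old-OSKM mouse 4 and at 5.13 to 5.26 in the others. Without that mouse Rack1 passed between old and young mice, higher in old mice (0.08, limma, adjusted p = 0.518).

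Of 39 genes of translation initiation and its control, Eif1 was higher (0.12, limma, adjusted p = 0.785) and Eif2b3 lower (-0.27, adjusted p = 0.849) in old than in young mice. Between old-OSKM and old mice 2 subunits of eIF3 were lower, Eif3f (-0.26) and Eif3h (-0.24), both lowest in old-OSKM mouse 4. In either comparison these were 5.13% of the list, below the share of all genes. Without that mouse Eif3f still passed (-0.17) and Eif3h did not (-0.14). Of 13 genes of elongation and termination, none passed between old and young mice, and Eef1b2, a subunit of the exchange factor of eEF1A, was lower in old-OSKM than in old mice (-0.14), which is 7.69% of the list. Of 18 known TOP mRNAs outside the ribosome, none passed with age and 4 (22.2%) passed between old-OSKM and old mice, 3 lower (the same Eif3f, Eif3h and Eef1b2) and Vim higher. Vim, an intermediate filament of mesenchymal cells and 1 of the fibroblast markers above, lay at 3.05 and 3.20 in old-OSKM mice 1 and 4 and at 1.87 and 2.00 in mice 3 and 2. Neither Eef1b2 (-0.13) nor Vim (0.50) passed without old-OSKM mouse 4.

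Of 54 ribosome biogenesis genes, none passed with age and 1 (1.85%), Taf1c, was lower in old-OSKM than in old mice (-0.50 ± 0.12, limma, adjusted p = 0.547). Taf1c encodes a subunit of the factor that brings RNA polymerase I to the rRNA genes. It lay at -1.02, -0.78, -0.79, -1.03 and -0.77 in old mice and at -1.55, -1.32, -1.07 and -1.59 in old-OSKM mice, which were all lower, and it still passed without old-OSKM mouse 4 (-0.43). Ncl, also of this list, passed with age once that mouse was left out, lower in old mice (-0.19, limma, adjusted p = 0.55). Of 10 genes that survey stalled or faulty ribosomes, none passed with age, whereas Map3k20, the kinase that responds to colliding ribosomes, was higher (0.31) and Usp10 lower (-0.20) in old-OSKM than in old mice. Neither passed without old-OSKM mouse 4 (0.27 and -0.11). Zfp598 of this list did not pass with all mice (-0.11), but was lower and passed without that mouse (-0.16, limma, adjusted p = 0.669). In these lists, too, no gene had an adjusted p under 0.05.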

How the data were processed

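The authors aligned the paired reads of rRNA-depleted pancreas RNA with STAR 2.3.0e to mm10, estimated RPKM per isoform with Casper without reads mapping to 5 or more places, added the isoforms of each Entrez gene, and made log2 values that they quantile normalized. The deposited log2 RPKM of 23366 genes in 13 mice were used as they stand, without filter or pseudocount, and 23273 genes had a RefSeq symbol. Quantile normalization gives every mouse the same set of values. The 70 core genes with a mean from 4 to 6.5 are 70 of 199 genes there, so a shift common to all of them would be damped. The correction of the study by total reads could not be checked, since read totals were not used here. The 3 groups were fitted together with limma 3.58.1 in R 4.3.3 over all genes, with two-sided p-values and Benjamini-Hochberg adjustment. Members and gene lists were chosen with earlier results of these data known. Named members were those called, the 10 of smallest p with age and with OSKM, the 5 highest and lowest, the paralogs with their parents, the stalk, Rps6 and Rps19bp1, and 2 genes per pathway list and comparison; other names are marked where they appear, and some genes under this rule are not reported here by name. Mice were separate animals of a group, each with 1 library. The fit was tested on simulated data. Figures used matplotlib 3.10.9.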

Additional observations from a re-analysis of the deposited data

Results flagged for a closer look

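A mouse was singled out where its gap to the nearest mouse of its group, over the range of the group, passed Dixon's limit. This was tested in 123 groups of values (named members and a summary per mouse), and chance alone gives about 1 in 20; 17 were singled out. Of these, 6 belonged to old-OSKM mouse 4: Rpl17 (5.02), Rpl32l (0.461) and Rps27l (3.37) were low, Rpl4 (6.02) and Rps23 (5.54) were high, and the SD of its deviations was 0.326. Over all members 32 of 267 groups of values were singled out, 15 of them by this mouse. The marker levels that set this mouse apart are given above, and their part in these values was not tested.

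The old mice gave Rpl28 (5.73 in mouse 1), Rpl7l1 (2.11 in mouse 5) and Rplp0 (5.66 in mouse 5). The young mice gave Rpl12 (5.81 in mouse 4), Rpl30 (1.56 in mouse 3), Rpl39 (4.93 in mouse 3) and Rpl7 (5.48 in mouse 2). In Rpl12, Rpl28, Rpl4 and Rpl7 the other mice of the group had the same value to 2 decimals. Near the lower end of the scale were Rpl10l (-3.14 in old mouse 2), Rpl39l (-2.91 in old mouse 2) and Rpl3l (-2.21 in old mouse 4 and -2.12 in old-OSKM mouse 3).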

How the results depend on the processing

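No member was called, at a fold over 1.5 with p under 0.01, under any alternative in any comparison, nor with any mouse left out (0 to 0). The number of members at a raw p under 0.05 moved, and so did the share of all genes at that p (4.44% to 8.3%, 4.1% to 16.5% and 3.79% to 12.4% over the alternatives in the 3 comparisons below). For old against young mice (3) it was 9 with a pseudocount of 1, 7 with 0.1, 12 with the 2 groups alone, 7 with trend and robust variances, 13 with the global signature as a covariate (5.47%, 5.63%, 7.95%, 5.47% and 7.11% of all genes, in this order), 16 with old-OSKM mice 1 and 4 left out, and 1 to 15 with each mouse left out in turn (15 without old-OSKM mouse 4; 1 without old mouse 1, 3 or 5 or young mouse 3). For old-OSKM against old mice (11) it was 5 with genes of a mean above 0 only, 5 with the 2 groups alone, 2 within the identifiers 609 to 621, 1 with old-OSKM mice 1 and 4 left out, and 1 to 19 with each mouse left out (1, 19 and 4 without old-OSKM mice 1, 3 and 4; 6, 5, 4, 7 and 4 without old mice 1 to 5; 7 without young mouse 1). For old-OSKM against young mice (1) it was 0 with genes of a mean above 0 only, with the 2 groups alone, with the run of identifiers as a covariate and within one run, 3 with either pseudocount or trend and robust variances, 6 with the global signature, 5 with old-OSKM mice 1 and 4 left out, and 0 to 8 with each mouse left out (0, 3 and 8 without old-OSKM mice 1, 3 and 4; 0 and 2 without young mice 2 and 3). The cause was not tested. Median differences ran from 0.0241 to 0.0462, from -0.0788 to -0.0166 and from -0.0345 to 0.0219 with each mouse left out; only the last changed sign, also with the global signature (0.0157) and with old-OSKM mice 1 and 4 left out (0.0149). No named member reversed past a threshold. No paired analysis applied, since the mice were separate animals and each belonged to a single group. The number of reads behind each value is unknown, which limits every value.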

Other observations

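The mitochondrial ribosome is built from its own set of proteins, encoded by nuclear Mrpl and Mrps genes, and 78 of these were measured. Between old and young mice 1 had a raw p under 0.05, Mrps6, which was higher in old mice (0.45, limma, adjusted p = 0.581; 5.52% of all genes passed), and the median difference was -0.005. Between old-OSKM and old mice 5 passed, all lower, which is 6.41% of the list (8.07% of all genes passed). The difference was above 0 for 6 of 78 genes and for 36.9% of all genes, with a median of -0.113 where that of all genes was -0.039. Between old-OSKM and young mice it was above 0 for 10 of 78 genes (38.7% of all genes), with a median of -0.129 (-0.038 for all genes). Mrps33 lay at 1.16, 1.57, 1.46, 1.22 and 1.41 in old mice and at 1.01, 1.10, 0.99 and 0.93 in old-OSKM mice, all lower (-0.36 ± 0.08, limma, adjusted p = 0.547). Mrpl33 differed by -0.27. Without old-OSKM mouse 4 the differences were -0.33 for Mrps33 and -0.20 for Mrpl33. The difference between the mitochondrial and the cytosolic lists was not tested.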
